A study of Mus musculus with 6 samples.

Results

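Inflammasomes are assembled in the cytosol when a sensor protein detects a microbial product or cellular damage. The genes described here are 10 inflammasome components, chosen by symbol from the 17830 genes of the deposited count table: the sensors Nlrp1a, Nlrp1b, Nlrp3, Nlrc4 and Aim2, the sensor partner Nek7, the adaptor Pycard, the caspases Casp1 and Casp4, and the pore protein Gsdmd. All 10 were present in the table and all 10 passed the filter on low counts that left 13484 genes for testing. The question was whether Nlrp1b was higher alone or together with its partners when a mutant amyloid precursor protein was expressed in cells of the osteoblast lineage. Nlrp1b is a gene that the study itself picked out from these libraries, so its difference here is not independent evidence.

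RNA was sequenced from 6 libraries of skull bone cells, 3 per group, from mice aged 6 months. Control mice were mOCN-Cre; Ai9, and the other group, called APPswe below, was TgAPPswemOCN-Cre; Ai9. Both groups carry the mOCN-Cre allele, an iCre placed behind the osteocalcin gene Bglap, and the Ai9 reporter, which makes tdTomato in cells in which Cre has acted or whose ancestors expressed it. The APPswe group also carries human APP with the Swedish mutations under the CAG promoter, silent until Cre removes a stop cassette. The labels describe cells that grew out of calvarial chips in culture and were replated, and RNA from tdTomato-positive cells isolated by flow cytometry. They do not state the order of culture and sort. The labels do not say that the 3 libraries of a group came from separate animals, so p-values measure the spread between these libraries, which may be technical.

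An active inflammasome draws caspase-1 to the sensor, in most cases through the adaptor encoded by Pycard. Caspase-1 cleaves the precursors of interleukin-1β and interleukin-18 and also gasdermin D, whose amino-terminal fragment forms pores in the plasma membrane and causes pyroptosis. These proteins are best known from macrophages and other myeloid cells. Much of their control is exerted on the proteins, by assembly and cleavage, which RNA levels do not measure.

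Total counts ranged from 17263757 to 18398392 per library, so that 3 counts, taken as the floor of detection, correspond to 0.167 to 0.173 CPM, the unit of counts scaled to library size. This floor covers counting error only. Control replicate 2 stood apart from the other libraries. Its Bglap level was 0.0562 CPM, against 9.18 and 11.5 CPM in control replicates 1 and 3 and 6.45 to 8.93 CPM in APPswe, and the summed level of 4 Y-linked genes was 0.112 CPM against 127 to 197 CPM in the other 5 libraries. The study gives the mice as male, and the Y-linked level of this library goes against that. Where leaving it out changed whether a named gene passed the test, both values are given. Bglap did not pass with all libraries (log2 difference 0.12, edgeR adjusted p = 0.945). Without control replicate 2 it was lower by 0.46 log2 and passed (adjusted p = 0.0337). The labelled cell type is osteoblast, and Col1a1 stood at 3585 to 5705 CPM, but the macrophage gene Lyz2 stood at 7148 to 16084 CPM and the leukocyte gene Ptprc at 181 to 277 CPM in the same libraries. Human APP was not measured separately here. The mouse gene App differed by -0.11 log2 (edgeR adjusted p = 0.507), so the counts used here give no check of the transgene.

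Nlrp1a and Nlrp1b are neighbours on mouse chromosome 11 and are shown first as sequence, because reads of such a pair could be assigned to the wrong copy. In RefSeq on GRCm38.p6, Nlrp1a lies on the minus strand at chr11:71091197-71144969 and Nlrp1b on the same strand at chr11:71152574-71242514, 7604 bases away. The coding sequences of the copies are identical at 87.2% of 3503 aligned bases. The windows from 250 bases before to 50 bases after a RefSeq start site were identical at 255 of their 300 bases. They are printed 5′ to 3′ on the gene's strand, from chr11:71144655-71144954 for Nlrp1a and from chr11:71230684-71230983 for Nlrp1b, with capitals marking the bases that differ between the copies or have no aligned partner.
Nlrp1a: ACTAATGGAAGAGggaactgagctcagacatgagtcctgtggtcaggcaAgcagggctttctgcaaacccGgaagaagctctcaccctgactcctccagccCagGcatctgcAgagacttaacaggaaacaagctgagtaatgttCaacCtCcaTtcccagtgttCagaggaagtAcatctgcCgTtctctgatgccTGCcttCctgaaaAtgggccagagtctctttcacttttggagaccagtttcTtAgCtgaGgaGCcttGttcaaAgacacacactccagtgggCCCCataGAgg
Nlrp1b: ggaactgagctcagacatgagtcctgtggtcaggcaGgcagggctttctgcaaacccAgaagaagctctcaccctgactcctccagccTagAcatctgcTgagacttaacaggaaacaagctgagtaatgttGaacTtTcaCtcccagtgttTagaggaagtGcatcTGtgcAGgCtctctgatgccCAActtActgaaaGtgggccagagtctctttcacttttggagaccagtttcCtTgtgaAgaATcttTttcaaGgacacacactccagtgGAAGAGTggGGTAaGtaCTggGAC

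A second RefSeq start window of Nlrp1b, at chr11:71201407-71201706, matched the Nlrp1a window at 60.3% of its bases. The longest stretch that the coding sequences share without a difference was 102 bases long. It lies in exon 10 of Nlrp1a (chr11:71106006-71106107) and in exon 9 of Nlrp1b (chr11:71163983-71164084) in the GENCODE annotation, and is shown because reads from it cannot be assigned to either copy.
Shared run: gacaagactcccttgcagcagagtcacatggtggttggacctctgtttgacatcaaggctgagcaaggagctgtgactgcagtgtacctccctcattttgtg

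Such stretches were rare in the transcripts. Of all 50-base windows of the Nlrp1b transcript, 2.18% also occurred in another gene's transcripts, and of its 100-base windows 0.0743%. For Nlrp1a the share of 50-base windows was 2.28%. Of the other members, Casp1 and Casp4, adjacent on chromosome 9 and 70.6% identical in aligned coding bases, shared no 50-base window. Pycard shared 11.8% of its 50-base windows, nearly all with Gm45205, which is annotated on the opposite strand. Nek7 and Aim2 also overlap a gene on the opposite strand, and the sources used here do not state whether counting used strand, so these 3 values are uncertain to that extent.

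Nlrp1b, whose protein is activated by inhibitors of dipeptidyl peptidases, was the only member called higher in APPswe by the rule used here. The rule asks for a 2-fold change and for an adjusted p no higher than 0.05. Nlrp3, the adaptor Pycard and Casp1 were lower by less than 2-fold. The other 6 members did not pass the test. By the rule with the fold limit, 1 of 10 members was called higher, against 3.74% of all genes tested. No member was called lower by that rule in edgeR or DESeq2, against 3.60% of all genes, and 4 members were lower at an unadjusted p under 0.05, against 19.4% of all genes. Without the fold limit, 1 member was higher, where the share of all genes was 10.5%, and 3 were lower, where it was 12%. The groups did not overlap in 4 of 10 members, against 45.0% of all genes tested, so separation of the groups on its own was common in these libraries. The median log2 fold change was -0.11 over the members and 0.00 over all genes tested. Without control replicate 2 the median over the members was 0.04, so its sign depended on that library.

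**Figure D1:**
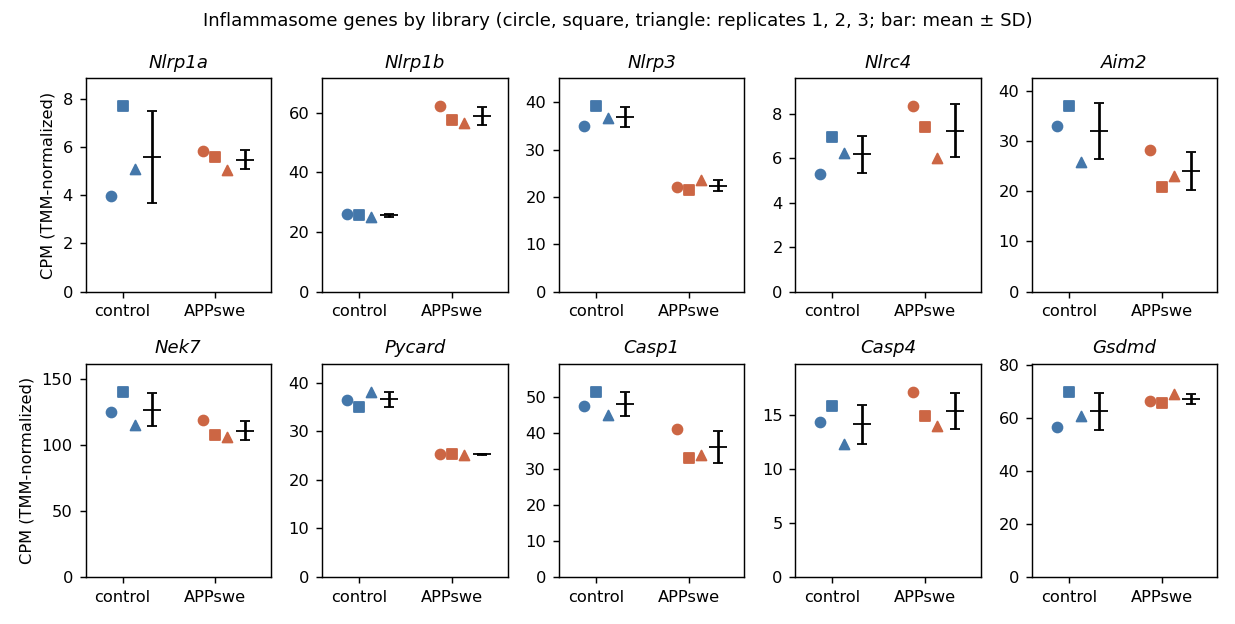
TMM-normalized CPM (y axis, linear from 0) of the 10 inflammasome genes in each library of the control (blue) and APPswe (orange) groups, with symbols for replicates 1 to 3 and a black bar for the mean ± SD (n = 3). Nlrp1b lies at 24.8 to 26.0 CPM in control and at 56.4 to 62.1 CPM in APPswe, while Nlrp3, Pycard and Casp1 lie lower in all APPswe libraries than in all control libraries.

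Among the sensors, Nlrp1b had 451, 456 and 440 counts in control replicates 1 to 3 and 1108, 1034 and 1004 counts in APPswe replicates 1 to 3. As normalized levels these were 26.0, 25.6 and 24.8 CPM in control and 62.1, 57.6 and 56.4 CPM in APPswe. Each APPswe library lay above every control library, and control replicate 2 was among its group at this gene. Nlrp1b rose 2.30-fold, by 1.20 log2 (SE 0.0775, 95% interval 1.02 to 1.39) in edgeR's quasi-likelihood test, with a Benjamini-Hochberg adjusted p of 0.000505. Between libraries whose names are written in the same style, a possible batch, the log2 difference was 1.27 in the style with a hyphen and 1.20 in the other. The hyphen style held control replicates 1 and 2 and APPswe replicate 1. The other held control replicate 3 and APPswe replicates 2 and 3, so each rested on 1 library in 1 of the groups. Without control replicate 2 the log2 fold change was 1.21 (edgeR adjusted p = 7.67e-07). Over 16 alternative analyses, which included other tools and the reads of both Nlrp1 copies summed, it ran from 1.05 to 1.29 and passed in each, with adjusted p from 6.68e-24 to 0.0119.

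Nlrp1a, the neighbouring paralogue, stood at 3.98, 7.70 and 5.08 CPM in control and at 5.83, 5.57 and 5.06 CPM in APPswe. The groups overlapped, and control replicate 2 was the highest library. Its log2 fold change was -0.03 with a 95% interval from -0.64 to 0.59 (edgeR adjusted p = 0.951), and it was 0.28 (adjusted p = 0.176) without control replicate 2, so the sign depended on that library. When the reads of Nlrp1a and Nlrp1b were summed, an alternative added after the data had been seen, the pair was higher by 1.05 log2 (SE 0.0847, edgeR adjusted p = 0.000888).

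Nlrp3, the sensor of potassium efflux and of many forms of membrane damage, stood at 35.0, 39.2 and 36.7 CPM in control and at 22.1, 21.5 and 23.6 CPM in APPswe. The groups did not overlap, and the highest APPswe library lay well below the lowest control library. Nlrp3 fell by 0.72 on the log2 scale (SE 0.0883, 95% interval -0.93 to -0.51, edgeR adjusted p = 0.00304), to 0.606 of the control level. The difference passed in all 15 alternatives. The log2 differences within the library name styles were -0.75 and -0.70, and the fitted value without control replicate 2 was -0.67. In bulk samples, fewer cells of a type and less RNA per cell cannot be told apart.

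Aim2, which binds double-stranded DNA in the cytosol, stood at 32.9, 36.9 and 25.8 CPM in control and at 28.3, 20.8 and 23.0 CPM in APPswe. The groups overlapped because APPswe replicate 1 was above control replicate 3. The log2 difference was -0.41, with a 95% interval from -0.81 to -0.00096 before adjustment, and it did not pass after adjustment (edgeR adjusted p = 0.134).

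Nlrc4, which acts with the Naip receptors for bacterial flagellin and secretion system proteins, stood at 5.31, 6.97 and 6.26 CPM in control and at 8.35, 7.41 and 6.01 CPM in APPswe. Its groups overlapped, with APPswe replicate 3 inside the control range. The log2 difference was 0.23 with a 95% interval from -0.21 to 0.67 (edgeR adjusted p = 0.403). These libraries were thus compatible with a change of either sign within these bounds.

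Of the sensor partners, Nek7, a kinase that binds NLRP3 and is needed for its assembly, stood at 125, 141 and 116 CPM in control and at 119, 108 and 106 CPM in APPswe. The groups overlapped at control replicate 3 and APPswe replicate 1. The log2 difference was -0.20, with a 95% interval from -0.43 to 0.03 (edgeR adjusted p = 0.190). Pycard, the adaptor also known as ASC, stood at 36.5, 35.0 and 38.2 CPM in control and at 25.3, 25.3 and 25.2 CPM in APPswe. The groups did not overlap, and the APPswe libraries lay closer together than the control libraries. Pycard fell by 0.53 on the log2 scale (SE 0.0782, 95% interval -0.72 to -0.35, edgeR adjusted p = 0.00553) and passed in all 15 alternatives, with -0.56 without control replicate 2.

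Of the caspases, Casp1, which encodes the protease of the canonical inflammasome, stood at 47.4, 51.5 and 44.9 CPM in control and at 41.1, 33.1 and 33.9 CPM in APPswe. The groups did not overlap, with APPswe replicate 1 closest to control. Casp1 fell by 0.41 on the log2 scale (SE 0.111, 95% interval -0.67 to -0.15, edgeR adjusted p = 0.0406), close to the threshold. Casp1 did not pass the adjusted p in 9 of 15 alternatives. It did not pass without control replicate 1 (edgeR adjusted p = 0.0901) or 3 (0.0645), nor without APPswe replicate 2 (0.163) or 3 (0.159). It passed without control replicate 2 (0.0133). The log2 difference stayed between -0.51 and -0.35 with 1 library left out.

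Casp4, which encodes the sensor of cytosolic lipopolysaccharide in the non-canonical pathway, stood at 14.4, 15.9 and 12.3 CPM in control and at 17.2, 15.0 and 14.0 CPM in APPswe. The groups overlapped. The log2 difference was 0.12, with a 95% interval from -0.22 to 0.46 (edgeR adjusted p = 0.591). Gsdmd, the pore protein cleaved by both caspases, stood at 56.5, 70.0 and 60.9 CPM in control and at 66.4, 65.9 and 69.2 CPM in APPswe. The groups overlapped only through control replicate 2, the highest of all 6 libraries. The log2 difference was 0.10 with all libraries (95% interval -0.12 to 0.33, edgeR adjusted p = 0.464) and 0.20 without control replicate 2, where it passed (adjusted p = 0.0406). In that analysis, with control replicate 2 left out, 23.3% of all genes tested were higher and 25.0% lower at the same threshold.

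**Figure D2:**
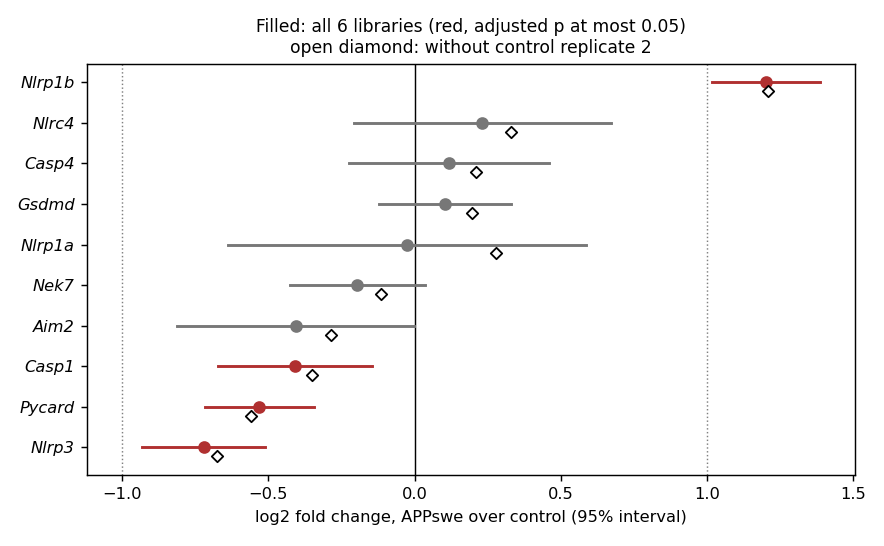
Log2 fold change of each inflammasome gene in APPswe over control (x axis) with its 95% interval from edgeR (filled points, red where the adjusted p was at most 0.05) and the same value without control replicate 2 (open diamonds); dotted lines mark a 2-fold change. Nlrp1b at 1.20 stands alone above the 2-fold line, and Nlrp3, Pycard and Casp1 lie between -0.72 and -0.41.

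The difference between Nlrp1b and its partners was also taken within each library, as the log2 ratio of the CPM values, which does not depend on the library size. The ratio of Nlrp1b to Nlrp3 was -0.43, -0.61 and -0.56 in control and 1.49, 1.42 and 1.26 in APPswe, so the more abundant of the pair by reads differed between the groups. The ratio to Pycard likewise passed from -0.49, -0.45 and -0.62 to 1.30, 1.18 and 1.16, and that to Casp1 from -0.86, -1.01 and -0.86 to 0.60, 0.80 and 0.73. Both were negative in each control library and positive in each APPswe library.

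Over all 9 partners, the ratio was higher in every APPswe library than in every control library. All 9 ratios share the Nlrp1b values, so each carries the difference of Nlrp1b given above, and they are not 9 separate results. The difference between group means was largest against Nlrp3 (1.92 log2), followed by Pycard (1.73), Casp1 (1.62), Aim2 (1.61), Nek7 (1.40), Nlrp1a (1.18), Gsdmd (1.09), Casp4 (1.08) and Nlrc4 (0.97). Each of the 9 comparisons gave a two-sided exact permutation p of 0.1, adjusted p 0.1, which is the smallest value that 3 libraries against 3 allow, so the design could not reach 0.05.

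**Figure D3:**
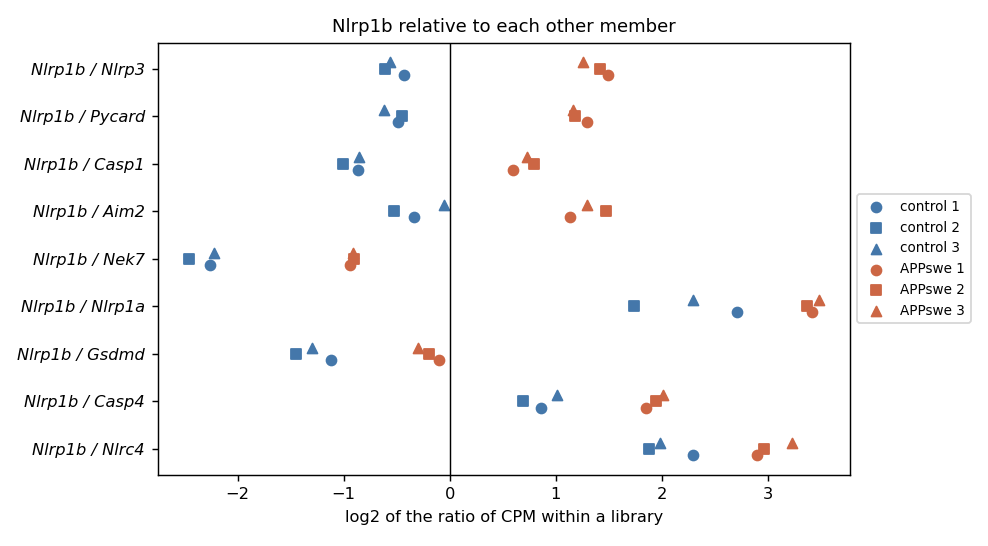
Log2 ratio of the Nlrp1b level to that of each other member within a library (x axis, from CPM), by library of the control (blue) and APPswe (orange) groups; symbols mark replicates. In each row the APPswe libraries lie to the right of the control libraries, by 0.97 log2 on average for Nlrc4 and by up to 1.92 for Nlrp3.

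Levels can be compared between genes only per length, and the FPKM values of the authors were used for this. In control the order of the mean FPKM was Gsdmd (40.5 ± 4.68, SD, n = 3), Casp1 (37.2 ± 2.73), Nek7 (30.7 ± 3.28), Pycard (19.0 ± 0.712), Casp4 (12.1 ± 1.59), Aim2 (11.1 ± 2.16), Nlrp3 (9.75 ± 0.544), Nlrp1b (5.59 ± 0.205), Nlrc4 (1.65 ± 0.220) and Nlrp1a (1.19 ± 0.415). The neighbours Gsdmd and Casp1, Casp4 and Aim2, Aim2 and Nlrp3, and Nlrc4 and Nlrp1a overlapped between libraries. Nlrp1b was the 8th of the 10 members in control.

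In APPswe, Nlrp1b was 5th with 13.8 ± 0.762 FPKM, between Casp4 (14.1 ± 1.62) and Pycard (13.8 ± 0.150), and its libraries overlapped with those of both. Gsdmd (45.7 ± 1.08), Casp1 (29.5 ± 3.88) and Nek7 (28.2 ± 2.06) remained the most abundant, and Aim2 (9.08 ± 1.43), Nlrp3 (6.24 ± 0.285), Nlrc4 (2.00 ± 0.375) and Nlrp1a (1.23 ± 0.0902) followed below. Casp1 and Nek7 overlapped in this group.

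Summed over the 5 sensors, the level was 29.2 ± 2.98 FPKM in control and 32.4 ± 2.53 FPKM in APPswe, with overlapping ranges. Nlrp1b made up 19.8%, 17.4% and 20.5% of this sum in control replicates 1 to 3 and 41.7%, 44.4% and 42.2% in APPswe replicates 1 to 3. Nlrp3 made up 33.5% ± 2.49 in control and 19.3% ± 1.55 in APPswe, and Aim2 37.6% ± 4.16 and 27.9% ± 2.31 (SD, n = 3). Among these 5, the leading sensor by FPKM was thus Aim2 or Nlrp3 in each control library and Nlrp1b in each APPswe library. Casp4, listed here with the caspases, was not among the 5. Its FPKM was 12.2, 13.7 and 10.5 in control, above both Aim2 and Nlrp3 in each library, and 15.7, 14.1 and 12.5 in APPswe. These shares are a description and were not tested.

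**Figure D4:**
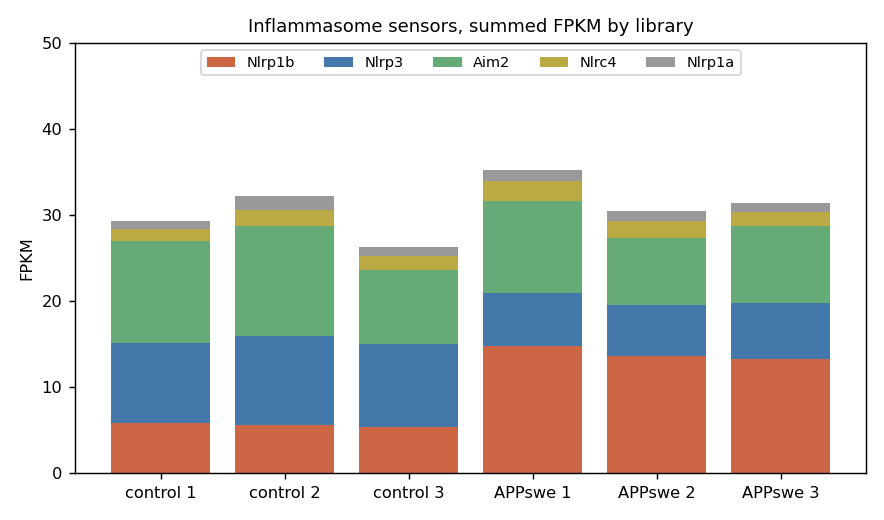
FPKM of the 5 inflammasome sensors (y axis, from 0), stacked by gene, for each of the 6 libraries. The total height is 26.3 to 32.2 in control and 30.5 to 35.3 in APPswe, and the Nlrp1b segment at the base makes up 17.4% to 20.5% of it in control and 41.7% to 44.4% in APPswe.

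The start-site windows were searched for short motifs on both strands, with N for any base. The core of the interferon-stimulated response element was written GAAANNGAA and was present in 8.56% of 32851 RefSeq windows of the same length. The interferon-gamma activated site TTCNNNGAA was present in 8.30% and the NF-kB motif GGANTTTCC in 1.25%. None of the 3 was found in the windows of the 9 members that had one, except for the NF-kB letters in 1 of the windows of Nlrp3. A looser NF-kB form, GGGA and CC with 4 bases of any kind between them, was present in 20.7% of all windows and in windows of Nlrp3, Nek7 and Casp4, and a longer form of the interferon-stimulated element, with an A added at its end, in 3.44% of all windows and in none of the members. The forms were set after the first matches had been seen. The Nlrp3 window, chr11:59541319-59541618 on the plus strand of GRCm38.p6, is printed because this sensor fell while Nlrp1b rose, with the match to GGANTTTCC on either strand in capitals.
Nlrp3: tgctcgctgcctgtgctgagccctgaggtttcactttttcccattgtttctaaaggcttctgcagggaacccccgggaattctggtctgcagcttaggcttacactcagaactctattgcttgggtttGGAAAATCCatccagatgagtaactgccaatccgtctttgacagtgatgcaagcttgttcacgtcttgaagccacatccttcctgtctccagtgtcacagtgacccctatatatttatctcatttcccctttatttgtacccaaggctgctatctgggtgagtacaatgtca

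The match starts 122 bases before the start site. Such a match is a description of letters and not a bound site, and the absence of letters from a window says nothing about the factor.

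The genes whose levels over the 6 libraries were most like those of Nlrp1b, by the root mean square difference of centred log2 CPM among 13484 genes, were Ugt1a6a (0.0355), Olfml2b (0.0565) and Phldb2 (0.0604), where the spread of the Nlrp1b values themselves was 0.601. None of the 3 is an inflammasome gene. Ugt1a6a, a glucuronosyltransferase of detoxification, stood at 23.8, 25.0 and 23.4 CPM in control and at 61.3, 55.8 and 54.2 CPM in APPswe. With 2 groups of 3 libraries, the likeness mainly describes a similar step between the groups.

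Other genes of the pathway were taken from a list of 104 symbols, of which 86 were in the table and 68 were tested. Of these 68, 4 were called higher and 7 lower with the fold limit, and 7 were higher and 17 lower without it. The shares of all genes tested were 3.74% and 3.60% with the limit and 10.5% and 12% without it, so the number of higher genes without the limit was close to the background. Their median log2 fold change was -0.31. Without control replicate 2, 13 of the same genes were higher and 32 lower without the fold limit, where the shares of all genes were 23.3% and 25.0%, and the median was -0.24.

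Among the products and antagonists, the precursor gene Il1b was close to the floor, at 0.231, 0.393 and 0.113 CPM in control and 0.953, 0.669 and 1.01 CPM in APPswe. It rose by 1.81 log2 (edgeR adjusted p = 0.0342), from 2 to 7 counts per library to 12 to 18 counts. Il1rn, which encodes the interleukin-1 receptor antagonist, stood at 60.1, 14.6 and 57.5 CPM in control and at 136, 136 and 138 CPM in APPswe. Control replicate 2 was far below its group, and Il1rn rose by 1.63 log2 with it (edgeR adjusted p = 0.0485) and by 1.22 without it (adjusted p = 1.49e-07). Il18, the other caspase-1 substrate, stood at 6.93, 6.41 and 4.74 CPM in control and at 9.36, 8.52 and 8.60 CPM in APPswe and did not pass with all libraries (log2 difference 0.55, edgeR adjusted p = 0.0660). It passed without control replicate 2 (log2 difference 0.60, adjusted p = 0.0106).

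Of the pathway genes past the adjusted p, Mefv had the largest change. It encodes pyrin, itself an inflammasome sensor. Mefv stood at 0.346, 2.08 and 0.113 CPM in control and at 14.0, 10.5 and 12.4 CPM in APPswe, and rose by 3.85 log2 (SE 0.752, edgeR adjusted p = 0.0146). Control replicate 2 was the highest control library, and without it the log2 difference was 5.71 (adjusted p = 1.51e-07). Dpp8 and Dpp9 encode the dipeptidyl peptidases that hold NLRP1 proteins inactive. Dpp9 stood at 66.4, 92.0 and 75.3 CPM in control and at 49.4, 55.0 and 51.8 CPM in APPswe, and fell by 0.58 on the log2 scale (edgeR adjusted p = 0.0216). Dpp8 stood at 139, 145 and 136 CPM in control and at 132, 134 and 123 CPM in APPswe. Its groups did not overlap, but the log2 difference of -0.11 did not pass (edgeR adjusted p = 0.316).

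Among the other NLR genes, Nlrp5, known from oocytes, was low at 0.169 to 0.337 CPM in control and 1.07 to 1.95 CPM in APPswe, and rose by 2.44 log2 (edgeR adjusted p = 0.0076). Nlrc5, an activator of MHC class I genes, fell by 0.82 on the log2 scale (edgeR adjusted p = 0.0435), from 32.9, 57.1 and 32.7 CPM to 23.8, 23.6 and 22.1 CPM. The Naip receptors hand bacterial ligands to Nlrc4. Of the 3 tested, 2 were higher without the fold limit, against 10.5% of all genes. Naip5 stood at 21.4, 31.0 and 20.8 CPM in control and at 42.2, 39.3 and 39.4 CPM in APPswe and rose by 0.73 log2 (edgeR adjusted p = 0.0233). Naip6 rose by 0.38 log2 (adjusted p = 0.042). The Naip genes are close paralogues, so reads could be split between them.

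Guanylate binding proteins made up 5 of the 7 pathway genes called lower. Guanylate binding proteins help to open pathogen vacuoles and support the caspase-4 and Aim2 pathways. Their list held 9 tested genes, 8 of them guanylate binding proteins and the other Irgb10 (listed as Gm12250). Of these 9, 5 were called lower, against 3.60% of all genes, and the median was -1.26 log2. The number of pathway genes called lower fell from 7 to 2 with the replicate block, to 1 with the library name style in the model and to 1 without any 1 of the APPswe libraries. Gbp9 stood at 39.0, 48.0 and 36.7 CPM in control and at 14.9, 14.8 and 14.6 CPM in APPswe and fell by 1.48 on the log2 scale (edgeR adjusted p = 0.00093). Gbp3 fell by 2.05, Gbp6 by 1.56, Gbp2 by 1.26 and Gbp8 by 1.12 on the log2 scale (edgeR adjusted p from 0.0197 to 0.0444). Control replicate 2 was the highest library for Gbp2, Gbp3, Gbp6 and Gbp9 and the lowest control library for Gbp8. Without it, 3 of the 9 were called lower, against 905 of 13753 genes tested, and the median was -0.75. Irgb10 fell by 2.29 on the log2 scale with all libraries but did not pass (edgeR adjusted p = 0.0870). Without control replicate 2 it fell by 0.75 and passed (adjusted p = 0.0103).

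Of 12 AIM2-like and other nucleic acid sensors tested, 2 were called lower, against 3.60% of all genes, and the median was -1.06 log2. Zbp1, a sensor of Z-form nucleic acids, stood at 14.9, 61.9 and 14.0 CPM in control and at 5.83, 4.46 and 4.61 CPM in APPswe, and fell by 2.61 on the log2 scale (edgeR adjusted p = 0.0285). Ifi207, which belongs to the same gene family as Aim2, fell by 1.06 on the log2 scale (edgeR adjusted p = 0.0453). In both genes control replicate 2 was the highest library, and without it the log2 differences were -1.54 and -0.60. Without that library the median of the list was -0.52.

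**Figure D5:**
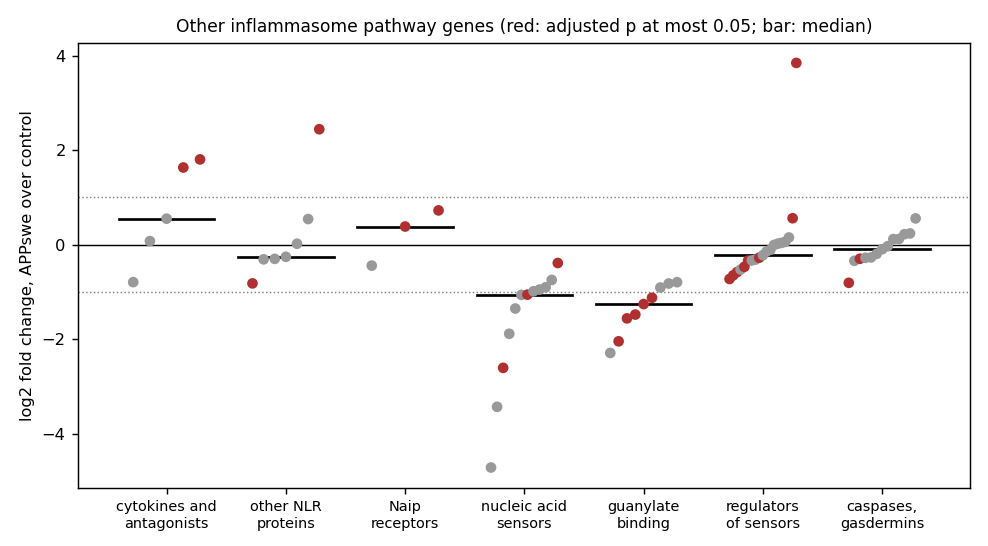
Log2 fold change in APPswe over control (y axis) of the 68 other pathway genes tested, by group of the list, with red points for genes with an adjusted p of at most 0.05, a black bar for the median of each group and dotted lines at a 2-fold change. The medians lie at -1.26 for guanylate binding proteins with Irgb10 and -1.06 for nucleic acid sensors, and Mefv at 3.85 is the highest point.

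Markers of other cell types moved between the groups beside these results. The summed level of 13 macrophage markers was 18025 to 24942 CPM in control and 12512 to 13501 CPM in APPswe, a ratio of 0.594, and 8 of the 13 were lower and 1 higher at an adjusted p of at most 0.05, where the shares of all genes were 12% and 10.5%. Without control replicate 2, 10 were lower and 2 higher, where the shares of all genes were 25.0% and 23.3%. Lyz2 made up most of the sum. The marker that was higher with all libraries was Aif1 (log2 difference 1.18, edgeR adjusted p = 0.0205). Adgre1, which encodes F4/80, fell by 0.54 on the log2 scale (edgeR adjusted p = 0.0436), and by 0.34 without control replicate 2 (adjusted p = 0.000499). Csf1r, the receptor that macrophages need to survive, stood at 778, 1362 and 820 CPM in control and at 939, 935 and 937 CPM in APPswe and did not pass (log2 difference -0.07, edgeR adjusted p = 0.832). Without control replicate 2 it was higher by 0.23 log2 and passed (adjusted p = 0.00556), so its direction rested on that library. Ptprc did not pass either (log2 difference -0.18, adjusted p = 0.477). The part of these markers in the lower Nlrp3, Pycard and Casp1 and in the higher Nlrp1b was not tested.

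The summed level of 12 osteoblast markers was 17573 to 18838 CPM in control and 11628 to 12258 CPM in APPswe, but its members did not move together. Spp1 fell by 1.19 on the log2 scale (edgeR adjusted p = 0.00466), while Sp7 rose by 1.98 log2 (adjusted p = 0.0205) and Runx2 by 0.63 log2 (adjusted p = 0.0374). The other 9 did not pass with all libraries. Without control replicate 2, 3 of the 12 were higher and 6 lower at the adjusted p, where the shares of all genes were 23.3% and 25.0%. That of 7 osteoclast markers was 158 to 287 CPM in control and 595 to 606 CPM in APPswe, with Calcr at or below 3 counts in each library. That of 9 skeletal muscle markers was 4.06 to 14.1 CPM in control and 194 to 199 CPM in APPswe. All 9 of these were called higher, against 3.74% of all genes. That of 6 endothelial markers was 198, 26.8 and 206 CPM in control replicates 1 to 3 and 9.97 to 11.4 CPM in APPswe. In control replicate 2, Kdr alone stood at 25.5 CPM. With all libraries, 1 of the 5 tested was lower at the adjusted p, where the share of all genes was 12%. Without control replicate 2, all 6 were tested and lower, where the share was 25.0%. Neutrophil markers summed to 14.6 to 32.4 CPM in control and 43.4 to 48.2 CPM in APPswe, with the defining genes Ly6g, Mpo, Elane, Ltf and Retnlg at or below 3 counts throughout. Most of this sum was Csf3r (log2 difference 0.83, edgeR adjusted p = 0.0672), and none of the 3 markers tested passed with all libraries. Without control replicate 2, Csf3r was higher by 0.56 log2 and passed (adjusted p = 0.000239). In that fit 1 other marker was lower, and the shares of all genes were 23.3% and 25.0%. The part of these cell types in the levels of the inflammasome genes was not tested.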

How the data were processed

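Cells labelled as tdTomato-positive skull osteoblasts were sequenced on the DNBseq platform in 6 libraries, grouped by sample title. The deposited read counts per gene were not normalized. FPKM values came from the authors, rounded to 2 decimals. Their blank cells, read here as 0, fell in 397 genes of the libraries named with a hyphen and in 716 genes of the others. The authors' columns of log2 fold changes and p-values hold their own comparison and were not used. The submitters' processing notes name the genome build GRCm38; the aligner and counting tool are not given in the sources used here.

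The test was that of edgeR 4.0.16 in R 4.3.3 (TMM, filterByExpr, quasi-likelihood test, no covariate, Benjamini-Hochberg adjustment over 13484 genes). Calls needed a log2 fold change of 1 or more in size and an adjusted p no higher than 0.05. The standard error is the log2 fold change over the square root of F. Alternatives used DESeq2 1.42.0, limma 3.58.1 on log2(FPKM + 1) and log2(FPKM + 0.1) for genes with a mean FPKM of at least 0.1, other filters and scaling, a replicate block, the library name style added to the model, and each library left out in turn. The code was tested on simulated data. The chi-square per degree of freedom between the counts of libraries of a group was 1.57 for APPswe replicates 2 and 3, 5.94 for control replicates 1 and 3, 7.10 and 7.60 for APPswe replicate 1 with the others, and 72.9 and 77.2 for control replicate 2 with the others, where 1 is counting noise.

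The members, the pathway list and the markers were chosen with earlier results of these data known. Named were all members, the 12 pathway genes with the largest absolute change among the 24 past the adjusted p, the 3 genes most like Nlrp1b, and Bglap, Adgre1, Csf1r and Ptprc. Lyz2, Col1a1, Spp1, Sp7, Runx2, App, Gm12250, Calcr, Aif1, Kdr, Csf3r, Il18, Dpp8, Dpp9, Naip5, Naip6 and the near-absent defining markers were named after their values were seen. Promoter windows and gene positions are from RefSeq (GRCm38.p6, 9 of 10 members with a window), and transcripts from GENCODE M21, compared with Biopython 1.88. The lymphocyte marker list is not reported here.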

Additional observations from a re-analysis of the deposited data

How the results depend on the processing

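Under all alternatives run, 1 member was called higher (Nlrp1b) and none lower. The number of members lower at the adjusted p without a fold limit was 2 or 3, and Nlrp3 and Pycard passed in each alternative. The number higher was 1, and 2 without control replicate 2, when Gsdmd passed. The log2 fold change of Nlrp1a turned from -0.03 to 0.0438 without TMM, 0.0185 with the replicate block, 0.0306 with the name style, 0.0420 and 0.0898 in limma on log2(FPKM + 1) and log2(FPKM + 0.1), and ran from -0.22 to 0.277 with 1 library left out, with 0.029 without APPswe replicate 3. Its adjusted p was 0.176 or more throughout.

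The 4 pathway genes called higher became 2 with the replicate block, 2 in limma on log2(FPKM + 1), and 1 to 5 with 1 library left out. The 7 called lower became 2 with the replicate block, 1 with the name style, 3 in limma with either pseudocount, and 1 to 10 with 1 library left out. Leaving out any APPswe library gave 1 in each direction. The cause was not tested.

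Over all genes, 504 were called higher and 486 lower, against 384 and 324 with the replicate block, 576 and 413 without TMM, 670 and 905 without control replicate 2, 281 to 317 and 230 to 242 without 1 of the APPswe replicates, 320 and 186 in limma on log2(FPKM + 1), and 606 and 338 on log2(FPKM + 0.1). The deviations of same-numbered libraries from their group means correlated at 0.0736, -0.0364 and 0.158, against -0.22 to 0.116 for libraries with other numbers. These values did not show a pairing by number and cannot exclude one. With the replicate block, Casp1 did not pass (log2 difference -0.41, edgeR adjusted p = 0.0750).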
